A study of Rattus norvegicus with 12 samples.

Results

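Mitochondrial ribosomal protein genes, whose symbols begin with Mrpl for the large and Mrps for the small ribosomal subunit, were examined in the livers of rats fed a normal or a low protein diet. The family was chosen with earlier results of these data known. Its members were set by symbol alone (Mrpl or Mrps, a number and at most 1 further letter). Only genes that array probes could be named for through their RefSeq accession were considered. This gave 68 genes of 16661 named on the array. The reference table holds 75 symbols of this form, and those without a named probe were not analysed here. Adult male Wistar rats had eaten for 4 weeks either a control (CT) diet with 14% casein or a low protein (LP) diet with 5% casein and the same energy. Total liver RNA of 12 rats, 6 per diet, was labelled with Cy3 and hybridised to single-colour Agilent arrays, 1 rat per array. Nothing but the diet is stated to differ between the groups, and the labels name no genetic change or drug.

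The mitochondrial ribosome translates the few messenger RNAs encoded by mitochondrial DNA, all of which specify subunits of the respiratory chain and ATP synthase. Its ribosomal RNAs come from mitochondrial DNA, whereas its proteins are encoded in the nucleus, made in the cytosol and imported. Some of these proteins descend from bacterial ribosomal proteins and others were added in the mitochondrial lineage. Liver is rich in mitochondria, which there carry out part of the urea cycle, fatty acid oxidation and much of amino acid breakdown. Some symbols no longer describe the place of the protein. Mrps30 (mL65) and Mrps18a (mL66) are now placed in the large subunit, and the former Mrps36 is a subunit of the oxoglutarate dehydrogenase complex and carries the symbol Kgd4.

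Most mitochondrial ribosomal protein genes differed little between the diets, and 3 of 68 were higher in LP livers. These were Mrps18b (1.46-fold), Mrps26 (1.26-fold) and Mrps30 (1.23-fold), all listed here as mitochondria-specific, although Mrps18b codes for a protein related to bacterial S18. None of the 68 was lower. The threshold was an adjusted p under 0.05 from limma's moderated test with Benjamini-Hochberg adjustment over all 21874 genes tested. By this rule 6.53% of all genes were called, 3.48% as higher and 3.05% as lower, beside 4.41% of the members, all of them higher. At an unadjusted p under 0.05, 18 of 68 members were higher, beside 2250 of all 21874 genes (10.3%). At that level 0 of 68 were lower, beside 2472 of the 21874 (11.3%).

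All 68 members were well above background on all 12 arrays and passed the filter on dim probes. Their differences, LP minus CT on the log2 scale, ran from -0.12 to 0.54 with a median of 0.053, beside a median of -0.025 over all genes tested. The quartiles of the members were -0.023 and 0.156, and the median standard error (SE) of a member was 0.072. Thus 46 members lay above zero and 22 below. The 95% interval of the difference lay within 0.5 of zero on the log2 scale, or 1.41-fold, for 64 of 68 members. It reached past that bound for Mrps18b, Mrps2, Mrpl47 and Mrpl50, each on the side of higher values in LP livers.

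**Figure D1:**
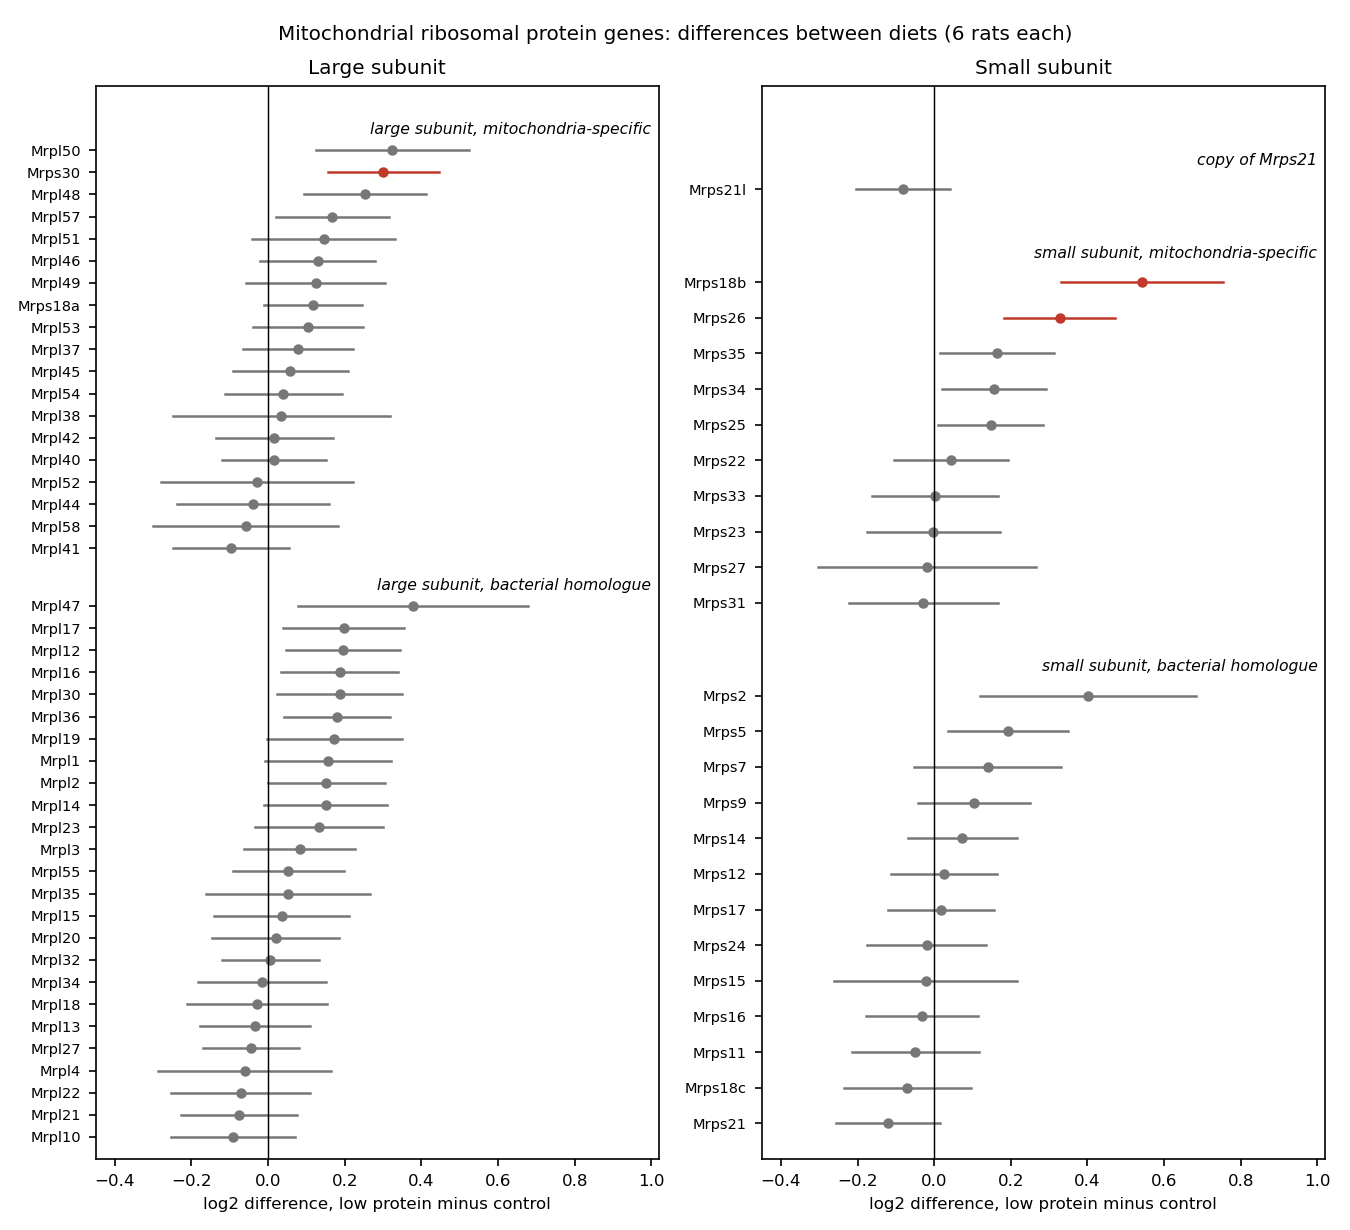
Difference between the diets for each of the 68 genes (horizontal axis, log2 scale, LP minus CT, 6 rats per diet), grouped by subunit and by whether the protein has a bacterial homologue. Points are differences and bars 95% intervals; red marks adjusted p under 0.05. The 3 red genes lie at 0.30 to 0.54, and most other intervals include zero.

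The split above and below zero depends on how arrays were scaled. Values were set relative to the 75th percentile of each array. Without any scaling, the median of all genes moved from -0.025 to 0.107 and that of the members to 0.185, and 68 of 68 members lay above zero. In the deposited value table, which is also unscaled, these medians were 0.097 and 0.197, and again 68 of 68 lay above zero. After quantile normalization the members' median was 0.039 and 39 lay above zero. The gap between the members' median and that of all genes was 0.078 with the 75th percentile, 0.069 after quantile normalization and 0.115 after normexp background correction. It was -0.008 without the filter on dim probes, where many dim genes enter the comparison.

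The 75th percentile of the processed signal was 942.0 to 1316.6, and 61.21% to 69.95% of spots were well above background. The number of arrays limits the precision. The 12 arrays lay on 2 slides, one with 4 rats of each diet and one with 2 of each (CT rats 2 and 4, LP rats 5 and 6). Scans coincided with slides. On each slide the diets lay in different array positions, so position and diet cannot be told apart within a slide. Hepatocyte markers (8 of 8 measured) summed to 647 to 750 times the 75th percentile signal in CT and 549 to 714 in LP livers. Of these markers 2 were lower, and 3 were at an unadjusted p under 0.05. Such sums weigh bright markers most. Markers of Kupffer cells and macrophages (6 of 6 measured, 0 called, 4 lower at an unadjusted p under 0.05) summed to 12.5 to 26 in CT and 12.5 to 18.6 in LP livers. Those of endothelial cells summed to 10 to 12.6 in CT and 10.3 to 12.6 in LP livers, with Clec4g not measured. Sums in CT and LP livers, in that order, were 0.242 to 0.42 and 0.201 to 0.327 for cholangiocytes, and 3.07 to 3.9 and 2.87 to 3.88 for stellate cells and fibroblasts. In each of these lists 1 marker was lower at an unadjusted p under 0.05. For T and B cells, of which 4 of 7 markers were measured and 1 was lower, they were 0.323 to 0.499 and 0.302 to 0.46. The neutrophil sums were 0.0848 to 0.192 and 0.15 to 0.19, and the erythroid sums 2.59 to 6.23 and 2.7 to 6.35, with 2 of 3 markers measured in each list. At an unadjusted p under 0.05, 1 neutrophil marker was higher. Over all genes tested, 3.05% were called lower, and 11.3% were lower and 10.3% higher at an unadjusted p under 0.05. The T and B cell markers Cd3e, Cd79a and Ms4a1 were not measured. Differences lay below zero for 7 of 8 hepatocyte markers (median -0.146) and 6 of 6 Kupffer cell and macrophage markers (median -0.348). Among cholangiocyte markers 4 of 5 lay below zero (-0.226), and among stellate cell and fibroblast markers 5 of 6 (-0.107). For T and B cells 3 of 4 did (-0.056). Above zero lay 3 of 4 endothelial (0.042), 2 of 2 neutrophil (0.346) and 2 of 2 erythroid markers (0.146). In whole liver, fewer cells of a type and less RNA per cell cannot be told apart, and the part of cell composition in the differences below was not tested.

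Promoters of the 3 genes that rose are shown because they let a reader see whether these genes share the short motifs usual for nuclear genes of mitochondrial proteins. Each runs 5' to 3' on the gene's strand from 250 bases before to 50 bases after the start site, in RefSeq's GRCr8 table. Capitals mark matches, on either strand, to the core letters searched: GCGCATGC for NRF1, CCGGAAG for ETS factors such as GABP, AAGATGGC for YY1, GGGCGG for SP1 and CACGTG for the E-box. TGACGTCA for CREB and TGATGNAAT for ATF4 were searched too and had no match in these 3 windows. Mrps18b lies at chr20:2842756-2843055 on the plus strand, Mrps26 at chr3:138222074-138222373 on the plus strand and Mrps30 at chr2:52195855-52196154 on the minus strand.
Mrps18b: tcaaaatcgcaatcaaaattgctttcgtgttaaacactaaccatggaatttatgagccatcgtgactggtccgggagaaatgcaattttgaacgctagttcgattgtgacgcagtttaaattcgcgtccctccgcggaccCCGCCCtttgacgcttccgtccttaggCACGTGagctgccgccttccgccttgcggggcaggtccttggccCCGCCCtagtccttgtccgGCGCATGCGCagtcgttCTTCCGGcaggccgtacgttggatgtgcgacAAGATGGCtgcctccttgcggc
Mrps26: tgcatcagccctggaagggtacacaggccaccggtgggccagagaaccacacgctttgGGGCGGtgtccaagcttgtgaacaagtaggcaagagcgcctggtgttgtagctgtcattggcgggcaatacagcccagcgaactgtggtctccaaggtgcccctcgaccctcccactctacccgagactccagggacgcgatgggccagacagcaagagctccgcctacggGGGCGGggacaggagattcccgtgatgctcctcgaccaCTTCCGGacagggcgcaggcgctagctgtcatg
Mrps30: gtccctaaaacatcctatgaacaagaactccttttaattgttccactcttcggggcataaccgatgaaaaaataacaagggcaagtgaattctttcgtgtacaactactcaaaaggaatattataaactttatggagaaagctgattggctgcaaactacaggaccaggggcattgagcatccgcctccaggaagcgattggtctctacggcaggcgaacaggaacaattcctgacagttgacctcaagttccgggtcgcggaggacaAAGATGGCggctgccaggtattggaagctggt
The Mrps18b window holds an E-box, an ETS core, an NRF1 core on each strand that overlap each other, 2 SP1 cores and a YY1 core. The Mrps26 window holds an ETS core and 2 SP1 cores, and that of Mrps30 only a YY1 core. No motif searched was present in all 3 windows.

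Over the family, 55 of 68 genes were in the promoter table, 53 of them with a single entry, and these 53 were searched. The YY1 core was in 13 (24.5%), beside 3.17% of all 33469 promoters and 5.36% of the 8920 promoters of named genes tested here. The ETS core was in 18 (34%), beside 8.75% of all promoters and 17% of those of tested genes. The NRF1 core was in 5 (9.43%), beside 2.47% and 4.57%. The SP1 core was in 28 (52.8%), beside 33.1% and 57.7%, and the E-box in 6 (11.3%), beside 6.42% and 9.06%. The CREB core was in 1 (1.89%), beside 1.83% and 2.96%. The ATF4 core was in 0, beside 1.09% and 0.639%. The median GC content of the windows was 56.3% for the members and 51.7% for all promoters. A match is a run of letters only. The YY1 letters hold ATG, and in Mrps18b and Mrps30 their match lies after the start site. Whether such matches lie where translation starts was not checked. The 13 members with a YY1 core had a median difference of 0.13 and the 40 without one 0.03. For the ETS core the medians were 0.093 with it and 0.058 without it, and for the NRF1 core 0.006 with it and 0.075 without it. For the SP1 core they were 0.111 with it and 0.020 without it, and for the E-box 0.110 and 0.073. Each of these 5 sets with a core ran up to the 0.54 of Mrps18b. These medians are descriptions, and the differences between them were not tested.

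The small subunit binds the messenger RNA and reads its codons. Among its mitochondria-specific proteins, 2 of 10 genes rose (20%, beside 3.48% of all genes tested). The median difference of the 10 was 0.096 and their range was -0.028 to 0.54. Mrps18b codes for mS40, 1 of 3 proteins related to bacterial S18, and was placed in this list because it takes a place of its own in the mitochondrial ribosome and Mrps18c codes for the S18 homologue. Its log2 signal relative to the 75th percentile was lowest at -1.67, -1.50 in the median and highest at -1.37 in CT livers, and -1.19, -0.96 and -0.72 in LP livers. Every LP rat lay above every CT rat. The difference was 0.54 ± 0.10 (SE, 6 rats per diet, limma adjusted p = 0.00695). It was 0.52 on the first slide and 0.58 on the second.

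Mrps26 codes for mS26, a mitochondria-specific protein of the small subunit. Its log2 signal was 2.53, 2.63 and 2.70 (lowest, median and highest) in CT livers and 2.77, 2.95 and 3.06 in LP livers. The groups did not overlap here either. The difference was 0.33 ± 0.067 (SE, limma adjusted p = 0.013), with 0.37 on the first slide and 0.25 on the second. Without the filter on dim probes, which brings more genes into the adjustment, the adjusted p of Mrps26 was 0.0554.

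The other 8 mitochondria-specific genes of the small subunit did not pass. Mrps35 (0.16), Mrps34 (0.16) and Mrps25 (0.15), which code for mS35, mS34 and mS25, had limma adjusted p of 0.188, 0.164 and 0.193. In all of them the highest CT rat exceeded the lowest LP rat. A second, much dimmer probe for Mrps35 had a difference of -0.07 ± 0.22 (SE).

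None of the 13 small subunit genes with a bacterial homologue passed, and their median difference was 0.018. At an unadjusted p under 0.05, 2 were higher and 0 lower, beside 10.3% and 11.3% of all genes tested. Mrps2 codes for uS2m. Its log2 signal was -3.57, -3.09 and -2.88 (lowest, median and highest) in CT livers and -3.02, -2.76 and -2.39 in LP livers. The groups overlapped, with 5 of 6 LP rats above the highest CT rat. The difference was 0.40 ± 0.13 (SE, limma adjusted p = 0.0881), and it passed without scaling (adjusted p = 0.0346) and in the deposited table (0.00734). Mrps5, which codes for uS5m, had a difference of 0.19 (adjusted p = 0.14).

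The lowest difference of all members was that of Mrps21, which codes for bS21m. Its log2 signal was 2.69, 2.80 and 2.88 (lowest, median and highest) in CT livers and 2.59, 2.69 and 2.80 in LP livers. The ranges overlapped. The difference was -0.12 ± 0.062 (SE, limma adjusted p = 0.291), it was 0.012 without scaling, and a second, dimmer probe gave 0.089. Mrps21l, a near copy of Mrps21, had a difference of -0.082, and the probes of such a pair may share signal. Mrps18c, which codes for the S18 homologue bS18m, had a difference of -0.070 (adjusted p = 0.661), below zero in the scaled data and 0.063 without scaling.

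**Figure D2:**
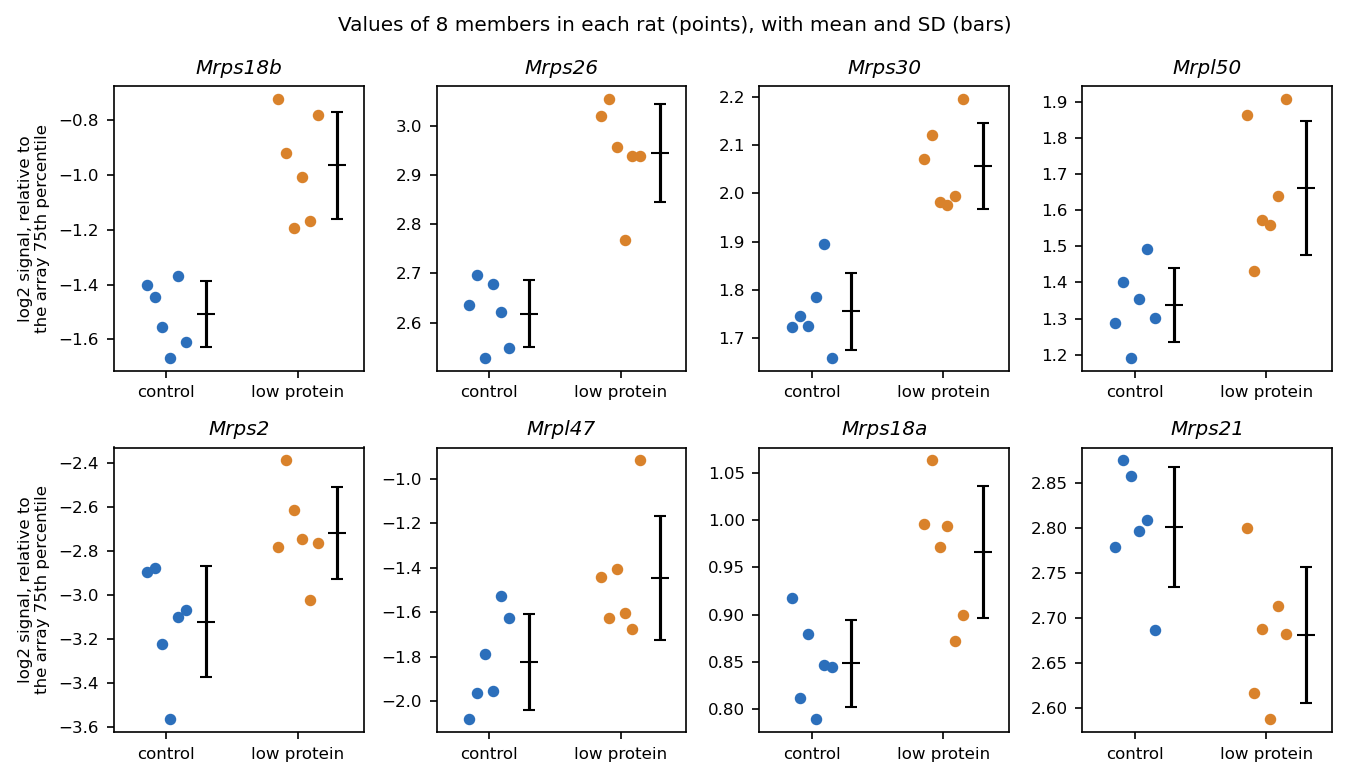
Log2 signal relative to the 75th percentile of the array (vertical axis, own scale in each panel) for 8 genes in 6 CT and 6 LP rats. Points are rats and the bars beside them the mean and SD. The diets do not overlap for Mrps18b, Mrps26 and Mrps30 and overlap for the other 5.

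The large subunit holds the centre where peptide bonds form and the tunnel through which the new chain leaves. Among its mitochondria-specific proteins, 1 of 19 genes rose (5.26%, beside 3.48% of all genes tested). Their median difference was 0.077 and their range -0.098 to 0.32. Mrps30 codes for mL65. Its log2 signal was 1.66, 1.74 and 1.90 (lowest, median and highest) in CT livers and 1.98, 2.03 and 2.20 in LP livers. Every LP rat lay above every CT rat. The difference was 0.30 ± 0.066 (SE, limma adjusted p = 0.0188), with 0.29 on the first slide and 0.33 on the second. Mrps30 missed the threshold when arrays were left unscaled (adjusted p = 0.0851), with the filter on dim probes removed (0.0761) and in the deposited table (0.0599).

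Mrps18b, Mrps26 and Mrps30 were the only members whose diet groups did not overlap. This is read from the same values as the test and adds no separate evidence. Over all genes tested, 3% had every LP rat above every CT rat and 1.98% the reverse. Among the 68 members these counts were 3 (4.41%) and 0.

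Mrpl50 and Mrpl48, mitochondria-specific proteins of the large subunit, came next. For Mrpl50 the log2 signal was 1.19, 1.33 and 1.49 (lowest, median and highest) in CT livers and 1.43, 1.61 and 1.91 in LP livers. A single LP rat fell below the highest CT rat. The difference was 0.32 ± 0.092 (SE, limma adjusted p = 0.0566). It passed in 5 of 25 alternatives, among them without LP rat 2 (0.0424) and after normexp correction (0.0335).

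For Mrpl48 the log2 signal was 1.62, 1.72 and 1.90 (lowest, median and highest) in CT livers and 1.83, 2.05 and 2.07 in LP livers. The groups overlapped, with 4 of 6 LP rats above the highest CT rat. The difference was 0.25 ± 0.074 (SE, limma adjusted p = 0.0605). It passed in 6 of 25 alternatives, among them without CT rat 2 (0.0464), without LP rat 4 (0.0456) and after normexp correction (0.0232). Mrpl57, which codes for mL63, had a difference of 0.17 (adjusted p = 0.171). Mrps18a had 0.12 ± 0.059 (adjusted p = 0.273) and Mrpl41 -0.098 (adjusted p = 0.469), which was 0.035 without scaling.

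None of the 25 large subunit genes with a bacterial homologue passed the test. At an unadjusted p under 0.05, 7 of them were higher, where 10.3% of all genes tested were. Their median difference was 0.053 and their range -0.092 to 0.38. The highest was Mrpl47, which codes for uL29m. Its log2 signal was -2.08, -1.87 and -1.53 (lowest, median and highest) in CT livers and -1.68, -1.52 and -0.92 in LP livers. The groups overlapped, and LP rat 6 stood above all others. The difference was 0.38 ± 0.14 (SE, limma adjusted p = 0.129), a second, dimmer probe gave -0.041, and the slides gave 0.24 and 0.66.

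Mrpl12, the stalk protein that contacts elongation factors, had a difference of 0.20 (limma adjusted p = 0.114). Mrpl17 (bL17m) had 0.20, Mrpl16 (uL16m) 0.19, Mrpl30 (uL30m) 0.19, Mrpl36 (bL36m) 0.18 and Mrpl2, which lies near the peptidyl transferase centre, 0.15, with adjusted p of 0.131, 0.139, 0.166, 0.12 and 0.231. Mrpl12 passed after normexp correction (0.0469), and Mrpl17 when its probes, at 0.198 and 0.487, were averaged (0.0209). At the other end stood Mrpl10, which anchors the stalk, at -0.092, Mrpl21 at -0.075 and Mrpl22, a protein of the exit tunnel, at -0.071, with adjusted p of 0.529, 0.594 and 0.686. These 3 were above zero without scaling, at 0.040, 0.058 and 0.061.

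By origin, 0 of 38 genes with a bacterial homologue and 3 of 29 mitochondria-specific genes passed, with median differences of 0.045 and 0.077. Mrps18b is counted among the latter despite its relation to S18, and so is Mrps18a. At an unadjusted p under 0.05, 9 genes of each kind were higher. By subunit, 1 of 44 large and 2 of 23 small subunit genes passed, with medians of 0.068 and 0.026. None of these differences between groups of members was tested. By symbol, the calls were 0 of 42 for Mrpl and 3 of 26 for Mrps, and 10 and 8 were higher at an unadjusted p under 0.05. The calls in all these splits are those of the same 3 genes. Over all genes tested, 3.48% were called higher, and 10.3% were higher at an unadjusted p under 0.05. Several probes were measured for 12 members, and their differences had opposite signs for 3 of these, Mrpl47, Mrps21 and Mrps35. In each, the untested probe was dimmer, at mean log2 signals of -5.229, -2.597 and -6.13 beside -1.634, 2.741 and 2.125. The differences of these dimmer probes were -0.041 ± 0.14, 0.089 ± 0.089 and -0.07 ± 0.22 (SE). For Mrpl40 the signs agreed, but the tested probe gave 0.015 and its dimmer probes 0.258 and 0.287.

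Member genes also varied together among rats of the same diet. With each gene centred on its mean over the 12 rats, the median over the members was -0.095 to 0.031 in CT rats and -0.052 to 0.137 in LP rats. The ranges overlapped. LP rats 1, 2 and 6 stood highest, at 0.137, 0.078 and 0.117, and LP rats 3, 4 and 5 lay at -0.026, -0.052 and -0.012. Large and small subunit genes were high in the same rats, with medians of 0.149 and 0.128 in LP rat 1 and 0.133 and 0.100 in LP rat 6. After removal of the diet means, the median Pearson correlation between 2 members over the 12 rats was 0.369 (2278 pairs). It was 0.671 between cytosolic ribosomal protein genes, 0.523 between respiratory chain and ATP synthase genes and 0.033 between all genes. These correlations share arrays and scaling and are given as descriptions.

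**Figure D3:**
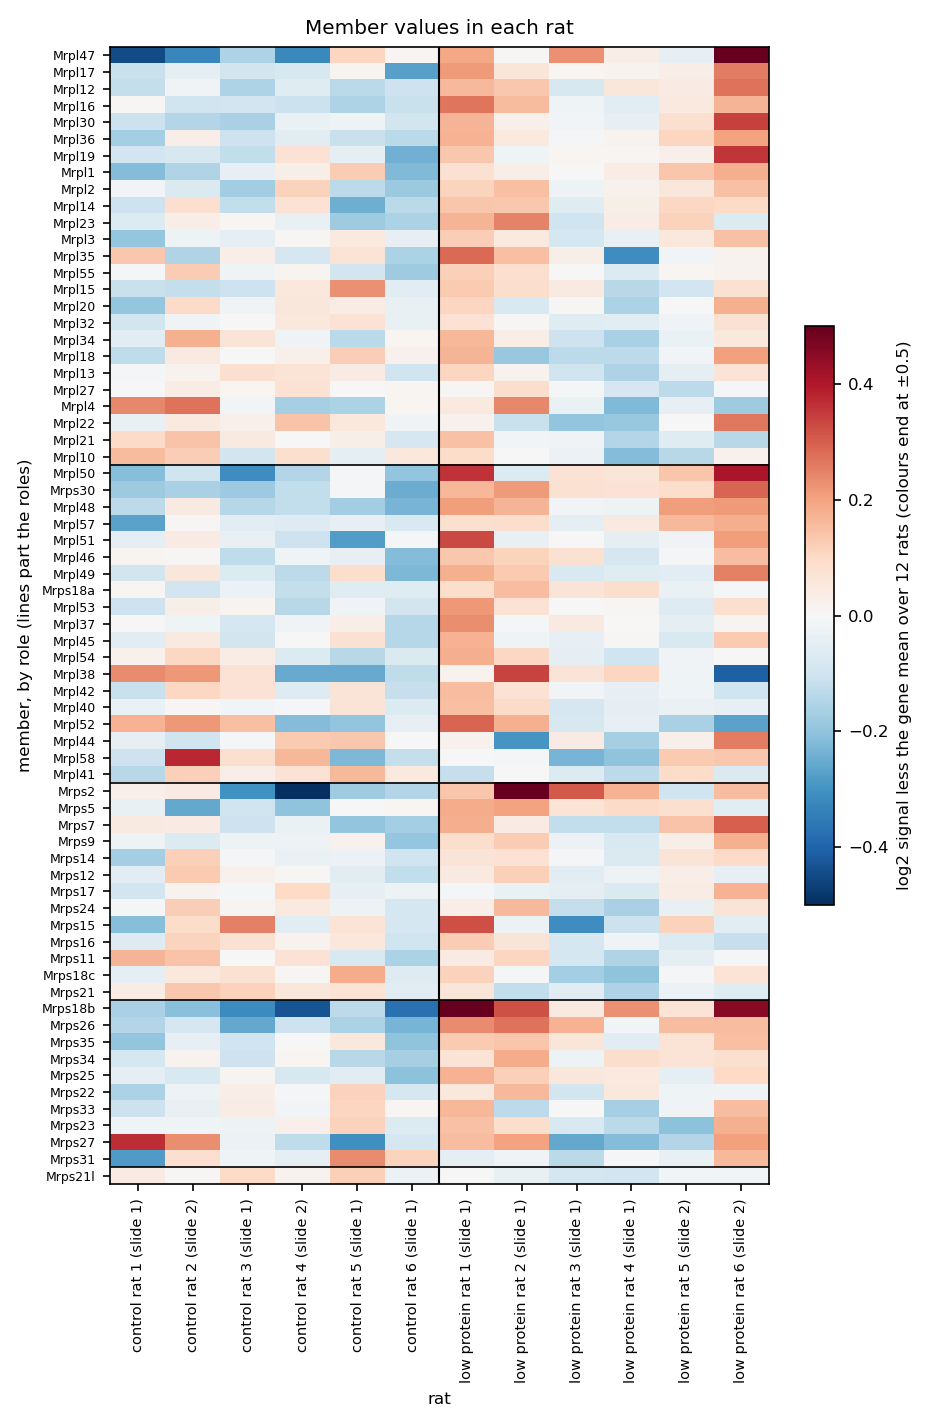
Log2 signal of each of the 68 genes (rows, with lines between the roles) in each of the 12 rats (columns), less the gene's mean over all rats; the colour scale ends at 0.5 either way. LP rats 1 and 6 are mostly red, and LP rats 3 and 4 are pale or blue for most genes.

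Cytosolic ribosomal protein genes and the respiratory chain genes stood on either side of the members. Of 77 cytosolic ribosomal protein genes tested, 13 rose and 0 fell (45 higher and 0 lower at an unadjusted p under 0.05), with a median difference of 0.155. Of 76 respiratory chain and ATP synthase genes tested, 0 rose and 2 fell (0 higher and 9 lower at an unadjusted p under 0.05), with a median of -0.074. The members' median of 0.053 lay between them. Over all genes tested, 3.48% were called higher and 3.05% lower, and 10.3% and 11.3% were so at an unadjusted p under 0.05. The lists were not tested against each other. Kgd4 had a difference of 0.12 ± 0.082 (SE, limma adjusted p = 0.465).

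**Figure D4:**
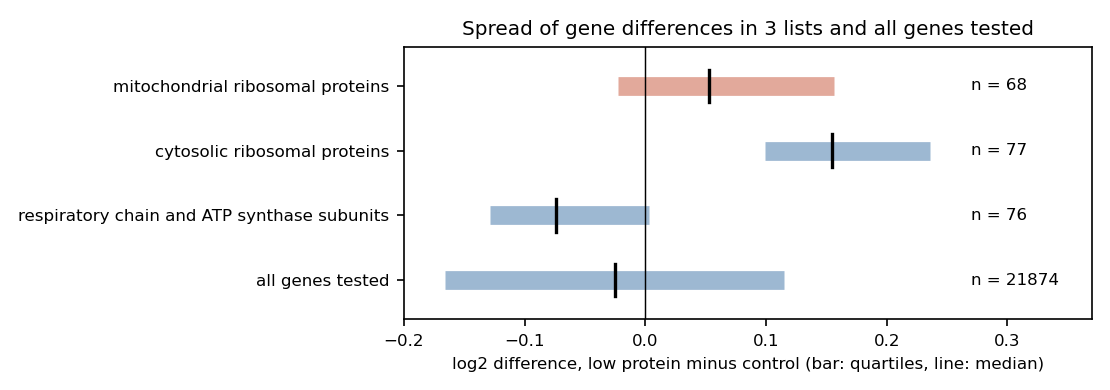
Spread of the differences between diets (horizontal axis, log2 scale, LP minus CT) over the genes of 3 lists and over all genes tested. Bars run from the lower to the upper quartile and black lines mark the medians, at 0.053 for the mitochondrial and 0.155 for the cytosolic ribosomal proteins, -0.074 for respiratory chain and ATP synthase subunits and -0.025 for all genes.

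Of the factors that build or serve the mitochondrial ribosome, those for assembly and ribosomal RNA modification held 3 genes that rose among 24 tested, and 0 that fell, with a median difference of 0.149. At an unadjusted p under 0.05, 10 were higher and 1 lower. The shares over all genes tested were 3.48% called higher and 3.05% lower, and 10.3% and 11.3% at an unadjusted p under 0.05. Fastkd2, which binds the large subunit ribosomal RNA, ran from -0.52 to -0.098 (median -0.30) in CT and from -0.046 to 0.22 (median 0.026) in LP livers. The groups did not overlap. The difference was 0.37 ± 0.086 (SE, limma adjusted p = 0.0231), and the call ended without CT rat 3 (adjusted p = 0.0559), with the filter on dim probes removed (0.0774), in the deposited table (0.0723) and with arrays left unscaled (0.102). Mrm3 and Mrm1 are methyltransferases of that ribosomal RNA. Mrm3 ran from -3.76 to -3.04 (median -3.31) in CT and from -3.25 to -2.51 (median -2.72) in LP livers. Mrm1 ran from -5.16 to -4.72 (median -4.92) in CT and from -4.86 to -4.05 (median -4.48) in LP livers. Both overlapped between the diets.

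The differences were 0.56 ± 0.14 for Mrm3 (limma adjusted p = 0.0327) and 0.47 ± 0.13 for Mrm1 (adjusted p = 0.0454). The call of Mrm3 ended without any of CT rats 1 to 4 or LP rats 1, 2, 3 and 6 (adjusted p from 0.0534 to 0.07), and that of Mrm1 without any single rat but CT rat 4 and LP rat 4 (0.0555 to 0.101). After normexp correction the differences were 0.34 for Mrm3 (0.0796) and 0.17 for Mrm1 (0.207). Without the filter on dim probes no gene of this list passed (Mrm3 0.0904, Mrm1 0.123), and Mrm1 also missed the threshold without scaling (0.072), in the deposited table (0.0535) and with trended robust spread (0.0527). Noa1, a GTPase of small subunit assembly, and Ddx28, a helicase of large subunit assembly, had differences of 0.45 and 0.43 (adjusted p = 0.0584 and 0.0564). Among other alternatives, Noa1 passed without LP rat 4 (0.0308) or LP rat 5 (0.03), and Ddx28 without CT rat 6 (0.0339) or LP rat 5 (0.0392). Malsu1, which keeps the large subunit from joining too early, had 0.25 (0.0645).

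The ribosomal proteins that carry other names (Dap3, Ptcd3, Chchd1, Aurkaip1 and Gadd45gip1) held 0 calls among 5, with 1 higher and 0 lower at an unadjusted p under 0.05. The 1 was Ptcd3, which codes for mS39, at 0.20 ± 0.074 (limma adjusted p = 0.132). Among 17 mitochondrial translation factors tested, 0 passed, with 4 higher and 1 lower at an unadjusted p under 0.05. Tsfm, the exchange factor of the mitochondrial elongation factor Tu, had the smallest p, with 0.27 ± 0.10 (adjusted p = 0.139). Tsfm passed without scaling (0.0424) and in the deposited table (0.0197). Among 14 mitochondrial tRNA synthetases 0 passed, with 2 higher and 0 lower at an unadjusted p under 0.05. Yars2, for tyrosine, had 0.26 ± 0.077 (adjusted p = 0.0627). The medians of these 3 lists were -0.021, 0.039 and 0.085. At an unadjusted p under 0.05, 10.3% of all genes tested were higher and 11.3% lower.

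In the list for transcription and upkeep of mitochondrial DNA, 1 of 10 genes rose (10%, beside 3.48% of all genes tested). This was Tfb2m, the initiation factor of mitochondrial transcription, which ran from -0.63 to -0.33 (median -0.46) in CT and from -0.31 to -0.071 (median -0.15) in LP livers. The groups did not overlap. The difference was 0.30 ± 0.073 (SE, limma adjusted p = 0.0282). The Tfb2m call ended without CT rat 1, 3, 4 or 6 or LP rat 2, 3 or 5 (adjusted p from 0.0526 to 0.0618), without scaling (0.0781) and without the filter on dim probes (0.099). Tefm, an elongation factor of that transcription, had 0.31 (adjusted p = 0.0692), and Tfam, which packages mitochondrial DNA, 0.17 (adjusted p = 0.15).

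Among 9 regulators of mitochondrial biogenesis, 1 rose and 0 fell, with 1 lower at an unadjusted p under 0.05. Over all genes tested, 3.48% rose, 3.05% fell and 11.3% were lower at an unadjusted p under 0.05. Pprc1, a coactivator related to Ppargc1a, ran from -2.69 to -2.11 (median -2.28) in CT and from -1.89 to -1.13 (median -1.44) in LP livers. Every LP rat was above every CT rat. The difference was 0.87 ± 0.14 (SE, limma adjusted p = 0.00448). Ppargc1a, the better known coactivator, had a difference of -0.76 ± 0.33 (adjusted p = 0.195), with -1.001 on the first slide and -0.27 on the second. Ppargc1a was well above background in 6 of 6 CT and 4 of 6 LP rats. It thus passed the filter only through CT rats, the diet in which it was higher. Hspa9, the mitochondrial chaperone that draws proteins in through the inner membrane, was the 1 gene that rose among 11 chaperones and proteases. It ran from 3.48 to 3.63 (median 3.54) in CT and from 3.76 to 4.06 (median 3.97) in LP livers, without overlap. The difference was 0.40 ± 0.067 (SE, adjusted p = 0.00513).

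**Figure D5:**
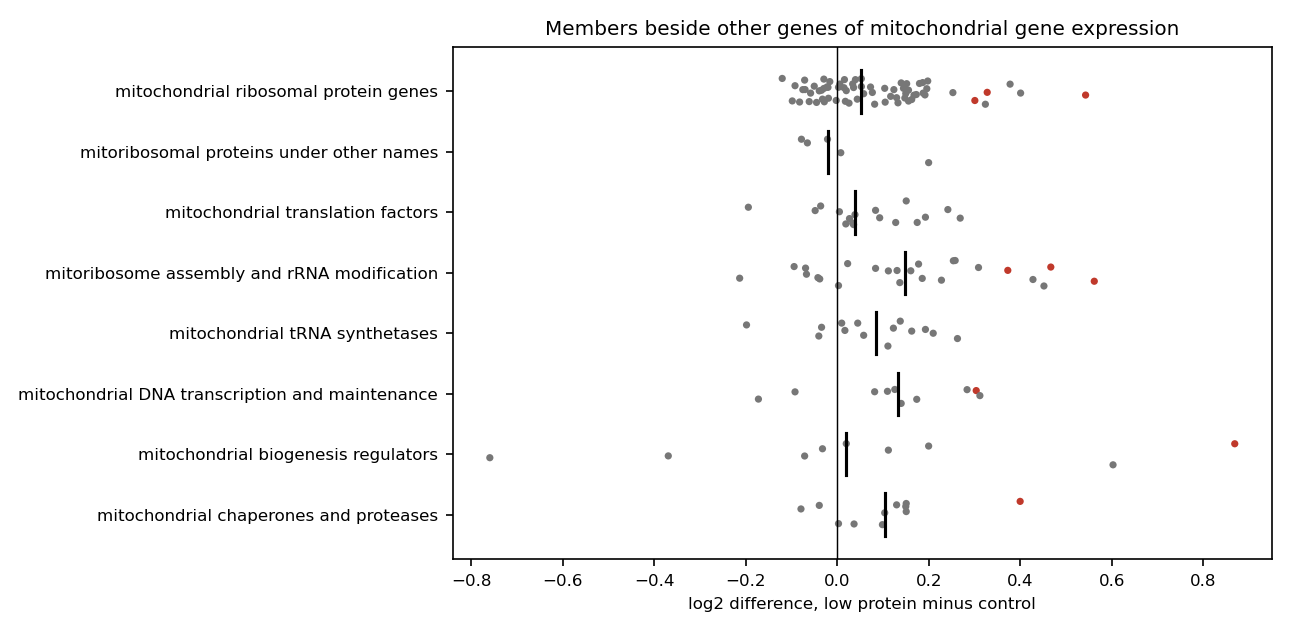
Difference between the diets (horizontal axis, log2 scale, LP minus CT) for each tested gene of the mitochondrial ribosomal proteins and of 7 lists of genes that serve them. Points are genes, red where adjusted p was under 0.05, and black lines are list medians. Pprc1 lies farthest to the right, at 0.87, and Ppargc1a farthest to the left, at -0.76.

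Several members start near another gene on the opposite strand. In the promoter table, 18 of the 53 members had such a neighbour starting within 1000 bases, at 44 to 996 bases. Of these neighbours 14 were tested, among them the members Mrpl46 and Mrps11, each the neighbour of the other. None of the 14 passed in limma's test, and their median difference was 0.020. At an unadjusted p under 0.05, 2 were higher and 1 lower, beside 10.3% and 11.3% of all genes tested. Ppp1r10 starts 588 bases from Mrps18b and had a difference of -0.009 ± 0.146, whose sign changed with the processing. Mrpl46 and Mrps11 start 234 bases apart, code for a large and a small subunit protein, and had differences of 0.13 (adjusted p = 0.305) and -0.050 (adjusted p = 0.771), the latter 0.083 without scaling.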

How the data were processed

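Total liver RNA of 12 rats was measured on Agilent arrays. Per the file headers, the authors' Feature Extraction 12.0.3.1 made the deposited intensity values (linear scale, not normalized between arrays), and the deposited series table equals its median signal at 100% of spots. Of 45598 probes, 21208 (46.5%) were named through RefSeq accessions in a GRCr8 table. From Feature Extraction's processed signal, not the deposited median signal, log2 less the array's 75th percentile was computed without controls. Outlier spots (453 to 739 per array) were set missing, and spots of a probe were averaged. Probes needed a signal well above background in 5 or more of the 6 rats on either diet, and the brightest probe of a gene was tested.

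Diets were compared by limma 3.58.1 under R 4.3.3, with lmFit, eBayes and two-sided p-values, adjusted over all genes (Benjamini-Hochberg) and called under 0.05. Scripts were tested on simulated data. Members and lists were chosen with earlier results of these data known. Text names members that passed, the 6 highest and 6 lowest, genes of changed subunit, and per pathway list those that passed or the smallest p. Further members with an unadjusted p under 0.05, Mrpl46, Mrps11, Noa1, Ddx28, Malsu1, Tefm, Tfam, Ppargc1a and Ppp1r10 were named after their values were seen. Alternatives changed background correction (normexp on median signal, offset 50), scaling, filter, outliers, probes, spread, slide, rat number and rats.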

Additional observations from a re-analysis of the deposited data

Results flagged for a closer look

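In a group of 6 rats, a value was marked where its gap to the nearest other, divided by the whole range of the group, exceeded the 95% critical value of Dixon's test. This was checked for each named member in each diet, 56 groups in all, and 3 were marked, where chance marks about 1 in 20 groups. Mrpl47 was marked in LP rat 6, the highest of its diet at -0.918 with the nearest rat at -1.407. Mrpl16 was marked in CT rat 1, the highest of its diet at 0.146 with the nearest at 0.041. Mrpl57 was marked in CT rat 1, the lowest of its diet at 3.147 with the nearest at 3.341.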

How the results depend on the processing

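The count of members higher in LP livers was 3. It was 6 after normexp correction (Mrpl12, Mrpl48 and Mrpl50 in addition), 5 in the deposited table, 5 with trended robust spread, 1 without the filter on dim probes, and 0 on slide 1 alone and 0 on slide 2 alone, which hold fewer rats. It was 3 to 4 when each rat was left out. No member was lower in any of the 25 alternatives. Mrps18b was called in 23 of these, Mrps26 in 22 and Mrps30 in 19. The median difference was 0.185 without scaling and 0.197 in the deposited table, and 0.030 to 0.077 when each rat was left out. Without scaling all 22 members below zero lay above it. Among the named genes, signs turned for Mrps21 (0.012), Mrpl41 (0.035), Mrpl10 (0.040), Mrps21l (0.050), Mrpl21 (0.058), Mrpl22 (0.061), Mrps18c (0.063), Mrps11 (0.083) and Ppp1r10 (0.123). In the deposited table, where all 22 also turned, the named ones were Mrps21 (0.012), Mrpl41 (0.049), Mrpl10 (0.051), Mrps21l (0.073), Mrpl21 (0.035), Mrpl22 (0.062), Mrps18c (0.022), Mrps11 (0.086) and Ppp1r10 (0.140). Mrpl22 was 0.036 on slide 2 alone, and Ppp1r10 was 0.009 after normexp correction, 0.023 on slide 1 alone and -0.111 to 0.058 when each rat was left out, above zero without CT rats 1, 2, 5 or 6 or LP rats 2 or 6. Over all genes, 1429 calls became 618 without the filter, 891 without scaling, 856 without CT rat 3, 164 on slide 1 and 12 on slide 2. The labels do not say that rat numbers pair rats. Same-numbered rats correlated at 0.034 to 0.26, with 2 of 6 best matched by their own number. With the rat number as a replicate block 1411 genes and 2 members passed. Under the block Mrps30 (adjusted p = 0.0653), Fastkd2 (0.0543), Mrm3 (0.0671) and Mrm1 (0.0888) missed the threshold, which left 0 assembly and modification genes called. The cause of these shifts was not tested. Scaling assumes the 75th percentile is equal between diets, low signals are compressed near background, and with 6 rats per diet small changes may be missed.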
